A study of Mus musculus with 22 samples.

Results

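The effect of the dnTGFβRII transgene in thymus lacking Aire was examined by setting 3 TG Aire-/- libraries against 3 Aire-/- libraries, which were 6 of the 22 samples of the series. The members were chosen by their labels, as the thymus libraries of these genotypes. All came from C57BL/6 mice of 2 to 4 weeks without treatment, from RNA of the whole thymus, and both groups lacked Aire. The labels write TG, which the series title identifies as dnTGFβRII, and 3 TG Aire+/- thymus libraries of the same strain and age shared the estimate of the spread. Sex, which the labels do not give, was read from the levels of Xist and of Y-chromosome genes. Libraries of both sexes stood in each group, so a group's replicates did not all come from 1 animal. The labels leave the source of the replicates unstated, and the p-values measure only the spread between these samples, which may be partly technical.

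Aire is a transcriptional regulator of medullary thymic epithelial cells, where it switches on genes of peripheral tissues so that developing T cells meet self antigens. dnTGFβRII is a truncated type II TGF-β receptor that binds its ligand without signalling, and in these mice the Cd4 promoter directs it to T cells, including thymocytes. TGF-β signalling through Smad proteins restrains T cell activation and sets the level of genes such as Itgae. Thymocytes pass from the cortex, as CD4 and CD8 double-positive cells that express the recombinase genes, to the medulla, where single-positive cells mature and leave.

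Only Sprr2a1 and Sprr2a2 passed the test with all libraries. These copies of a cornified-envelope gene with identical deposited values fell in TG Aire-/- thymus, and 0 genes rose (limma, adjusted p under 0.05, 12568 genes tested). At an unadjusted p under 0.05 there were 202 genes higher (1.61%) and 747 lower (5.94%), so 78.7% of them were lower, against 55.9% and 53.5% after median-of-ratios and quantile scaling. Of 20 genes inducible by interferon-γ, 8 had higher levels in every TG Aire-/- library than in any Aire-/- library, Gbp3, Gbp6, Gbp9 and Gbp10 among them, and none passed. Over all genes tested, 2.27% were higher in that way. The library labelled TG Aire-/- replicate 1 lacked cortical thymus transcripts, and without it 19 genes fell, among them the basal keratin Krt5, the milk casein Csn2, the chemokine Ccl22 and the chemokine receptor Ccr7. Those calls are lost (0 genes, 942 at an unadjusted p under 0.05) when TG Aire+/- also leaves the fit, and 10 of the 19 are kept with no filter on low values. Calls and gene lists are therefore given with and without that library where it moves them. In RNA of a whole organ, fewer cells of a type and less RNA per cell cannot be told apart.

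The labelled tissue was checked with markers of cortical thymus. Rag1, a recombinase of double-positive thymocytes, stood at 158, 406 and 614 RPKM in Aire-/- replicates 1 to 3 and at 0.571, 160 and 286 in TG Aire-/- replicates 1 to 3. Psmb11, the thymoproteasome subunit of cortical epithelium, stood at 21.2, 23.3 and 23.5 against 0.207, 15.4 and 14.1. Dntt, which adds bases at receptor gene joints, stood at 382, 282 and 439 against 2.60, 280 and 437. The markers that define cortical thymus were thus near 0 in that library, although its label is thymus. Medullary markers were not: Krt5, Fezf2 and Aire lay within the Aire-/- range there, and Krt17 and Cldn4 below it (values below). The summed medullary epithelium list stood at 1822, 359 and 179 RPKM in TG Aire-/- replicates 1 to 3 and at 331 to 578 in Aire-/-. The tissue make-up of that library was not tested. Glycam1, a gene of lymph node venules, stood at 23.0, 31.4 and 0 RPKM in TG Aire-/- replicates 1 to 3 and at 0 to 0.389 in Aire-/-. Summed B cell list levels were 365, 93.8 and 37.4 RPKM in TG Aire-/- replicates 1 to 3 and 47.0 to 53.9 in Aire-/-. Over all genes tested, 642 differed by at least 2 on the log2 scale between that library and the mean of its group's other libraries, against 36 and 127 for replicates 2 and 3. Aire-/- replicate 1 stood apart in another way: its long genes (over 5000 exonic bases) were low against its short ones (under 1000), with a median gap of −0.80 on the log2 scale, where the other Aire-/- libraries had 0.36 and 0.40 and TG Aire-/- had −0.44 to −0.17. TG Aire-/- replicate 2 shared part of the high venule and B cell levels of TG Aire-/- replicate 1. The summed lymph node venule list stood at 478, 94.1 and 12.3 RPKM in TG Aire-/- replicates 1 to 3 and at 29.7 to 67.8 in Aire-/-. Values without TG Aire-/- replicate 1 thus still include such transcripts. The part of gene length, and of non-cortical tissue in TG Aire-/- replicates 1 and 2, in the differences below was not tested.

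**Figure D1:**
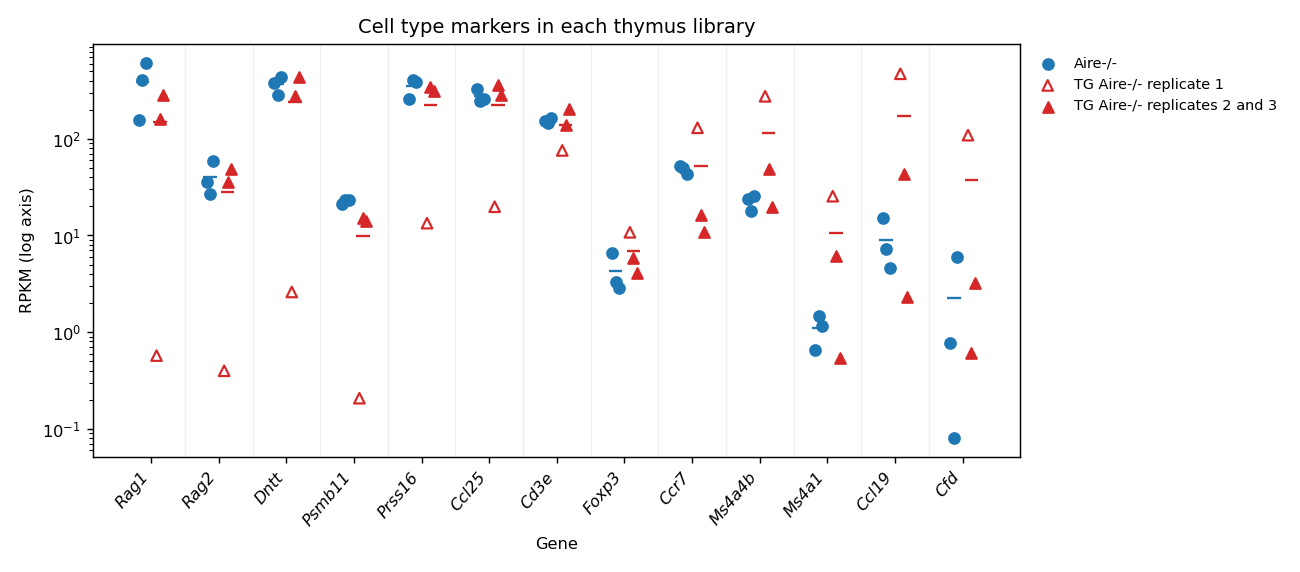
RPKM of 13 cell type markers on a log axis in the 6 libraries (circles Aire-/-, triangles TG Aire-/-, open triangles the library labelled TG Aire-/- replicate 1, bars group means). Rag1, Rag2, Dntt and Psmb11 lie lowest in the open triangles, while Ccr7, Ms4a4b and Ccl19 lie highest there.

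The genes altered by genotype were read next. Aire, measured over the whole gene, stood at 27.2, 29.5 and 16.0 RPKM in Aire-/- and at 20.2, 6.50 and 7.63 in TG Aire-/-. The deposited value sums all exons, so a knockout that removes some of them is not checked by it. TG Aire-/- replicate 1 lay within the Aire-/- range and the other transgenic libraries below it, and the difference of −1.14 (SE 0.387) did not pass (limma adjusted p = 0.61). Without replicate 1 it was −1.60 (SE 0.266, adjusted p = 0.0744). Tgfbr2, the receptor that the transgene product opposes, stood at 12.7, 30.4 and 29.2 RPKM against 29.6, 11.1 and 13.4. The groups overlapped, and reads of the truncated transgene, if they map there, cannot be told apart from those of the native gene.

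Genes of the TGF-β pathway did not pass the test in either direction with all libraries. Of the receptors and Smads, 8 of 9 passed the filter on low values, and 7 had lower estimates with a median difference of −0.52, beside −0.11 over all genes tested, of which 61.7% had lower estimates. Summed over all 9, levels were 75.0, 131 and 131 RPKM in Aire-/- and 101, 72.5 and 83.0 in TG Aire-/-. Aire-/- replicate 1 thus lay within the transgenic range. Without TG Aire-/- replicate 1 all 8 tested members were lower with a median of −0.47. With the gap between long and short genes as a covariate as well, the median was −0.31. Feedback and target genes had 8 of 13 lower estimates and a median of −0.22, and without that library 10 of 12 were lower with a median of −0.56. Itgae, the CD103 integrin chain that TGF-β induces in T cells, stood at 1.62, 3.50 and 2.69 RPKM in Aire-/- and at 1.37, 0.416 and 0.354 in TG Aire-/-. The Itgae groups did not overlap, with a difference of −1.09 (SE 0.304, limma adjusted p = 0.61). Skil, a repressor of Smads that TGF-β induces, stood at 4.51, 8.72 and 9.20 against 5.49, 2.73 and 3.09 RPKM, so its groups overlapped through the first replicate of each. Ldlrad4, an inhibitor of receptor-activated Smads, stood at 9.14, 12.6 and 12.1 against 1.44, 5.88 and 8.01 RPKM, all transgenic values being lower. Its difference was −1.20 with all libraries and −0.63 without replicate 1. Ligand and activation genes had 3 higher and 3 lower estimates with a median of −0.03, and its sign turned with other scalings. All 6 were lower without TG Aire-/- replicate 1, with a median of −0.33.

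Sprr2a1 encodes a small proline-rich protein that is cross-linked into the cornified envelope of squamous epithelium, and it is also induced in mucosal epithelia. Its GENCODE model lies at chr3:92215799-92221911 on GRCm38 (+ strand). The GENCODE model of Sprr2a2 starts within it, at 92215920, and runs to 92256724, whereas RefSeq starts Sprr2a2 farther along, inside that model. Its upstream sequence is shown because the copies share it: over the 250 bases before their RefSeq starts Sprr2a1 and Sprr2a2 were identical, and the window of Sprr2a3 was offset by 28 bases and matched at 222 of 222 shared positions. The first 200 of these bases are given, at chr3:92215585-92215784 for Sprr2a1 and chr3:92250397-92250596 for Sprr2a2 (GRCm38.p6, + strand, from RefSeq), with no part marked in capitals.
Sprr2a1 and Sprr2a2: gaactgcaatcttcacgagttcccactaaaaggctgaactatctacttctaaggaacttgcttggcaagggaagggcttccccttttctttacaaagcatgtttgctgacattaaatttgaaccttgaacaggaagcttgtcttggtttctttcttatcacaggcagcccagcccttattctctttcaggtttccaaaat

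In the deposited table Sprr2a1 stood at 19.3, 21.1 and 11.7 RPKM in the Aire-/- libraries and at 3.12, 2.00 and 2.19 in the TG Aire-/- libraries. All 3 transgenic values lay well below the lowest Aire-/- value, and TG Aire-/- replicate 1 did not differ from its group here as it did for thymus markers. In limma the gene fell by 2.39 (SE 0.261 on the log2 scale, adjusted p = 0.0274) and, with its identical copy, made up the 2 genes called lower (0.0159% of those tested). Without TG Aire-/- replicate 1 it fell by 2.53 (adjusted p = 0.0113). The TG Aire+/- libraries held 10.5, 15.2 and 11.4 RPKM of Sprr2a1, closer to Aire-/- than to TG Aire-/-, and the difference from Aire-/- was −0.43. The call was lost (0 genes) with no filter on low values (adjusted p = 0.0972), with a replicate block (0.135), with sex (0.0837) or the gap between long and short genes (0.11) as a covariate, after rescaling, when TG Aire+/- left the fit, or without any 1 of Aire-/- replicates 1 and 2, TG Aire+/- replicates 1 to 3 and TG Aire-/- replicates 2 and 3. Sprr2a3, the copy with its own values, stood at 3.26, 3.78 and 2.46 against 0.827, 0.364 and 0.669 RPKM (difference −1.36, adjusted p = 0.236). Its groups did not overlap either. Reads of such near-identical copies can be split between them in counting, so the 3 are uncertain as single genes. Over the cornified-envelope list 10 of 25 genes passed the filter, 5 with higher and 5 with lower estimates, and 7 of 9 were lower without TG Aire-/- replicate 1.

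The other genes lowest in p among those lower in TG Aire-/- did not pass with all libraries. They were chosen among genes whose groups did not overlap. Cyp26a1, which degrades retinoic acid, stood at 3.70, 4.28 and 3.11 RPKM in Aire-/- and at 0.839, 0.556 and 0.395 in TG Aire-/- (difference −1.56, SE 0.219, limma adjusted p = 0.12). The groups were far apart, and TG Aire+/- lay between them at 0.971, 1.41 and 1.66 RPKM, also below every Aire-/- library. Lpo, a secreted peroxidase of milk and airway, stood at 4.28, 3.97 and 3.40 against 1.24, 0.422 and 0.470 RPKM (−1.54, adjusted p = 0.15). For Lpo, unlike Cyp26a1, TG Aire+/- resembled Aire-/- with 3.32, 3.79 and 4.03 RPKM. Actn3, the α-actinin of fast muscle fibres, stood at 6.16, 8.40 and 7.18 against 3.12, 1.69 and 1.72 RPKM. It was not accompanied by the muscle genes Acta1 and Ckm, which stayed under 1 RPKM in all 6 libraries. All 3 genes passed without TG Aire-/- replicate 1: Cyp26a1 fell by 1.66 (adjusted p = 0.0215), Lpo fell by 1.75 (adjusted p = 0.0113) and Actn3 fell by 1.60 (adjusted p = 0.0193). When TG Aire+/- also left the fit none of the 3 passed (adjusted p = 0.192, 0.149 and 0.201), and with no filter Cyp26a1 (0.0644) and Actn3 (0.0568) did not.

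Itm2a, a membrane protein of maturing thymocytes, had the highest level of this set. Itm2a stood at 136, 169 and 192 RPKM in Aire-/- and at 38.5, 36.0 and 57.9 in TG Aire-/-, with no overlap and no outlying TG Aire-/- replicate 1. Its difference was −1.90 (SE 0.318, limma adjusted p = 0.236), and −1.82 without that library (adjusted p = 0.115). TG Aire+/- held 65.6, 100 and 147 RPKM, spanning the gap between both groups. Chil4, a chitinase-like protein of epithelia and macrophages, stood at 2.48, 4.24 and 3.33 against 0.805, 0.543 and 0.496 RPKM. Fgf21, a secreted metabolic factor, stood at 12.5, 7.74 and 4.70 against 2.98, 1.47 and 1.56 RPKM. Galnt10, a glycosyltransferase that starts O-linked glycans, stood at 14.8, 20.3 and 22.2 against 6.98, 6.97 and 9.09 RPKM. Separate groups were a condition of naming these genes. The differences of Chil4, Fgf21 and Galnt10 were −1.41, −1.58 and −1.20, and the limma adjusted p was 0.28 or more. They were −1.50, −1.80 and −1.14 without TG Aire-/- replicate 1 and did not pass either. Non-overlap alone was common: 6.42% of all genes tested were lower in every TG Aire-/- library than in any Aire-/- library, and 2.27% were higher. Among 10 measured retinoic acid genes 7 had lower estimates, with 7 of 9 without TG Aire-/- replicate 1, and Cyp26a1 was the one whose groups did not overlap.

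**Figure D2:**
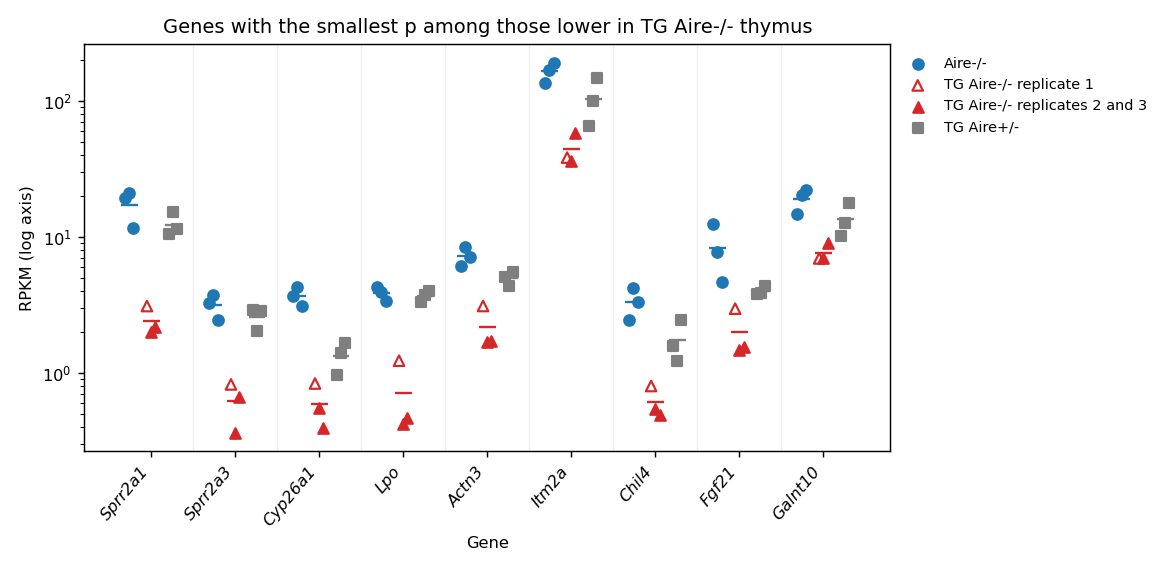
RPKM on a log axis of 9 genes lowest in p among those lower in TG Aire-/-, with 3 libraries of each thymus group and group means as bars. Triangles lie below all circles for each gene, which the rule that chose them required. The open triangle (TG Aire-/- replicate 1) lies with its group, and the grey TG Aire+/- squares of Sprr2a1 and Lpo reach into the circles while those of Cyp26a1 do not.

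Interferon-γ induces guanylate-binding proteins and immunity-related GTPases, which attack intracellular microbes. The short windows below were chosen among promoters that hold the letters GAAANNGAAA on one strand (TTTCNNTTTC on the other). These letters, the core of an interferon-stimulated response element, are printed in capitals. Holding them was not a condition of the gene list. The windows lie on GRCm38.p6 at chr3:142559974-142560025 (Gbp3, + strand), chr3:142530258-142530317 (Gbp7, + strand) and chr11:58199497-58199555 (Igtp, + strand), each ending before the RefSeq start.
Gbp3: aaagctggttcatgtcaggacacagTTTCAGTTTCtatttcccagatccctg
Gbp7: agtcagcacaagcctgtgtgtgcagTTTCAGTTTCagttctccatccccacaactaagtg
Igtp: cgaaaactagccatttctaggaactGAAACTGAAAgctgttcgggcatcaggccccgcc

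The motif was searched on both strands over the 250 bases before the start in RefSeq, and a gene counted if any of its promoters matched. It was in 10 of the 13 interferon-γ-inducible genes with an entry (76.9%). Gbp6, Gbp9 and Gbp10 were among those without an entry. It was in 9 of 20 type I interferon-stimulated genes (45.0%) and in 936 of all 27025 genes (3.46%). A match describes letters, not binding.

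All 20 interferon-γ-inducible genes passed the filter on low values and had higher estimates in TG Aire-/-, with a median difference of 0.93 beside −0.11 over all genes tested, of which 38.3% had higher estimates. None passed the test, and 10 had an unadjusted p under 0.05, where 1.61% of all genes were that far higher. Of the 20, 8 had groups that did not overlap, where 2.27% of all genes were higher in that way. Without TG Aire-/- replicate 1, 17 of 20 stayed higher with a median of 0.47, where 40.5% of genes had higher estimates, and again none passed. Summed over the list, levels were 296, 267 and 264 RPKM in Aire-/-, 829, 481 and 363 in TG Aire-/-, and 355 to 413 in TG Aire+/-. No Aire-/- library reached either transgenic group, whose ranges overlapped.

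Single members showed the same separation. Gbp6 stood at 7.97, 9.65 and 11.8 RPKM in Aire-/- and at 22.6, 19.7 and 16.3 in TG Aire-/-, a difference of 0.93 (SE 0.202, limma adjusted p = 0.61). Replicate 1 did not decide it, since the difference without that library was 0.82. Gbp9 stood at 11.0, 14.9 and 12.1 against 32.6, 29.5 and 18.0 RPKM, and Gbp10 at 2.95, 3.20 and 4.14 against 10.5, 7.28 and 5.54. Both were separate between the groups, with differences of 0.99 and 0.96. Gbp3 stood at 2.96, 3.07 and 3.34 against 28.7, 8.20 and 5.94 RPKM, so that replicate 1 was far above the rest, and the difference was 1.59 with it and 0.95 without it. Gbp8 ran the other way in that library, with 83.9, 58.2 and 42.3 RPKM in Aire-/- and 27.2, 167 and 108 in TG Aire-/-. The list's guanylate-binding proteins fall into clusters on chromosome 5 (Gbp4, Gbp6, Gbp8, Gbp9 and Gbp10) and chromosome 3 (Gbp2, Gbp3, Gbp5 and Gbp7). Without replicate 1 the estimates of the chromosome 5 genes were 0.59, 0.82, 1.17, 0.83 and 0.74, and those on chromosome 3 were 0.02, 0.95, 0.32 and 0.64, in the order named. The difference between the clusters was not tested, and the GENCODE models of Gbp4, Gbp8 and Gbp9 overlap, so these are uncertain as single genes. Cxcl9, a chemokine that draws activated T cells, stood at 0.886, 1.06 and 0.691 against 55.7, 6.01 and 1.53 RPKM. All 3 transgenic values were higher, over a wide range. Cxcl10, Ifi47 and Irgm2 were the members with negative estimates without replicate 1. Cxcl10 stood at 14.3 and 17.6 RPKM in TG Aire-/- replicates 2 and 3, within the Aire-/- range of 13.2 to 22.2.

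**Figure D3:**
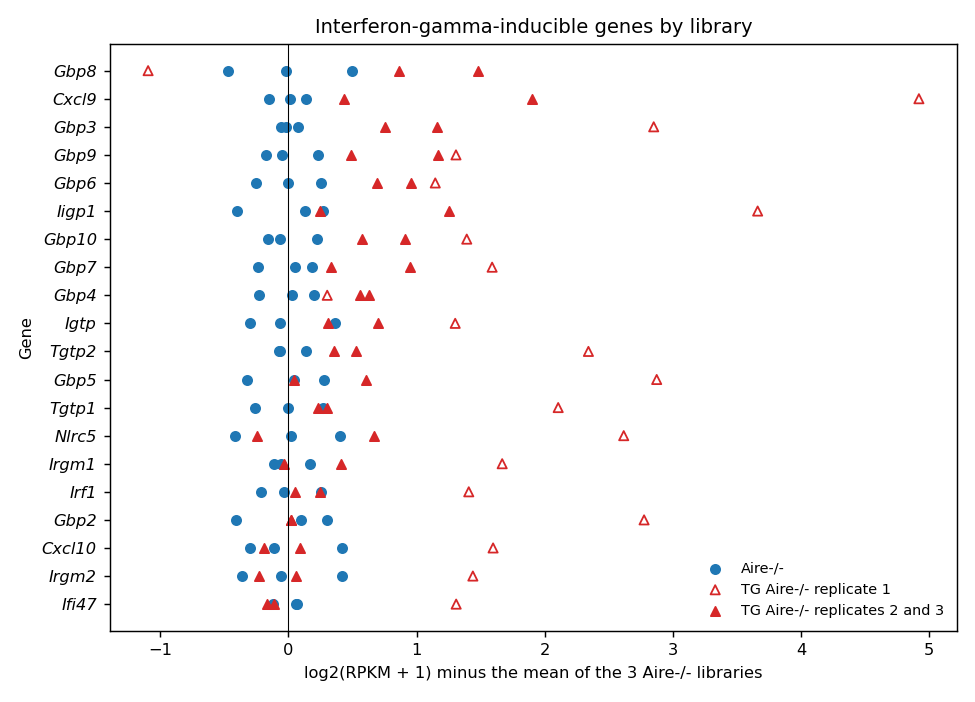
Level of each of 20 interferon-γ-inducible genes, as log2(RPKM + 1) minus the mean of the 3 Aire-/- libraries (circles Aire-/-, filled triangles TG Aire-/- replicates 2 and 3, open triangles replicate 1). Gbp3, Gbp6, Gbp9 and Gbp10 are shifted to the right in all 3 TG Aire-/- libraries, whereas Ifi47 is shifted in the open triangle alone.

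Type I interferon-stimulated genes had 24 of 30 higher estimates and a median of 0.33, and without TG Aire-/- replicate 1 the split was 16 of 27 with a median of 0.04. Members missing from the 27 passed the filter only with that library counted, and the split of 24 of 30 includes them. Rtp4, a chaperone induced by interferon, stood at 3.02, 3.32 and 3.26 RPKM in Aire-/-, at 14.5, 9.12 and 4.93 in TG Aire-/-, and at 10.9, 7.04 and 8.29 in TG Aire+/-. Both transgenic groups were above every Aire-/- library. The TG Aire-/- difference was 1.22 and did not pass. Irf9, the DNA-binding part of the type I response complex, stood at 10.0, 7.27 and 8.87 against 22.0, 13.2 and 10.5 RPKM. Isg15, a ubiquitin-like protein, stood at 31.9, 7.17 and 9.97 against 18.3, 21.9 and 12.4 RPKM, with overlapping groups. Epsti1, an interferon-responsive gene outside the list, stood at 24.2, 15.6 and 24.0 against 110, 50.4 and 45.0 RPKM (difference 1.55, SE 0.344, limma adjusted p = 0.61), and 1.15 without replicate 1. Of the remaining genes lowest in p among those higher in TG Aire-/-, the angiogenic factor Vegfa stood at 1.57, 1.71 and 1.89 against 8.70, 3.90 and 3.60 RPKM. Car2, a carbonic anhydrase, stood at 2.44, 2.46 and 2.96 against 4.83, 4.38 and 5.92, with replicate 1 in the middle of its group. Without that library Vegfa differed by 0.80, against 1.15 with it, and Car2 by 0.76. Zfp970, a zinc finger gene, and Mcoln2, a lysosomal channel of lymphocytes, differed by 0.95 and 0.74. Groups that do not overlap were a condition of naming genes by lowest p, so their separation is no added result.

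Vpreb3, which acts in assembly of the precursor B cell receptor, stood at 0.141, 0.227 and 0.356 RPKM in Aire-/-, at 7.70, 4.84 and 2.79 in TG Aire-/- and at 0.580, 0.381 and 0.637 in TG Aire+/-. Its TG Aire-/- libraries lay above all others. It passed the filter on low values only through those libraries and had to differ, so its test there is not given. With no filter the difference was 2.22 (limma adjusted p = 0.282), and without TG Aire-/- replicate 1 as well it was 1.92 (adjusted p = 0.0405), a setting chosen after seeing the data. The mature B cell marker Ms4a1, which encodes CD20, was less even and stood at 25.5, 6.07 and 0.535 RPKM in TG Aire-/- replicates 1 to 3. For Ms4a1, replicate 3 lay below every Aire-/- library. Pax5, the B lineage regulator, stood at 0.544, 0.733 and 0.258 against 14.9, 3.54 and 1.21 RPKM, separate in all. Several members of the B cell list, Vpreb3 and Pax5 among them, passed the filter only through TG Aire-/- libraries, so no count over the list is given.

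Cytotoxic genes showed a like dependence on the first library. Gzmb, the protease granzyme B, stood at 0.173, 0.399 and 0.267 RPKM in Aire-/-, at 48.0, 3.11 and 1.55 in TG Aire-/- and at 2.44, 2.86 and 2.57 in TG Aire+/-. Both transgenic groups were above every Aire-/- library, and Gzmb differed by 2.65 with all libraries and by 1.34 without TG Aire-/- replicate 1 (limma adjusted p = 0.61 and 0.0834). Cxcr3, the receptor for Cxcl9 and Cxcl10, stood at 0.418, 0.459 and 0.666 against 57.1, 3.92 and 0.875 RPKM. Gzma stood at 61.8, 35.3 and 47.6 against 45.7, 50.7 and 78.3 RPKM, with full overlap. Summed over the 17 NK and cytotoxic genes, levels were 836, 142 and 122 RPKM in TG Aire-/- replicates 1 to 3 and 73.5 to 126 in Aire-/-, so that only replicates 1 and 2 lay above every Aire-/- library.

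Among thymocyte genes the double-positive list carried the mark of TG Aire-/- replicate 1. Its summed level was 501 RPKM there, against 3107 and 4034 in TG Aire-/- replicates 2 and 3 and 3450 to 4190 in Aire-/-. Its median of −0.93 (15 of 16 lower) became 0.02 (8 of 16 lower) without that library. Genes reporting T cell receptor signal moved less with it: 9 of 10 had lower estimates with a median of −0.37, and 10 of 10 with −0.44 without replicate 1, where 59.5% of all genes had lower estimates. Nr4a1, an early receptor-signal gene, stood at 23.8, 19.8 and 27.2 RPKM in Aire-/- and at 15.5, 11.6 and 12.5 in TG Aire-/- (difference −0.79, SE 0.21, limma adjusted p = 0.61). Cd5, a surface protein whose level follows receptor signal strength, stood at 78.4, 76.1 and 73.1 against 43.8, 46.9 and 54.4 RPKM (−0.64). Both were separate between groups, while TG Aire+/- held 75.2, 76.6 and 80.9 RPKM of Cd5, above every TG Aire-/- value. Cd6, a relative of Cd5, stood at 62.0, 69.6 and 67.1 against 34.3, 48.7 and 47.5 RPKM. Lef1, a transcription factor of thymocytes, stood at 90.0, 88.6 and 85.8 against 40.6, 67.4 and 70.4 RPKM, with TG Aire+/- at 89.8, 86.5 and 89.1. Egr1, an immediate early gene outside the T cell receptor signal list, stood at 35.8, 29.7 and 40.9 against 22.9, 23.4 and 26.5 RPKM, without overlap. The immediate early and heat shock list had 7 of 13 higher estimates with a median of 0.01. Without TG Aire-/- replicate 1, 12 of its 13 were lower with a median of −0.22. Nr4a1 differed by −0.91 and Cd5 by −0.58 without TG Aire-/- replicate 1, while Lef1 went from −0.60 to −0.35. The pan-T list had 12 of 13 lower estimates with a median of −0.51, and 9 of 13 with −0.08 without replicate 1.

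All 24 cell cycle genes had lower estimates (median −0.44), 19 of them without TG Aire-/- replicate 1 (median −0.22). Mcm2, a subunit of the replication helicase, stood at 34.4, 46.6 and 51.1 RPKM in Aire-/- and at 21.6, 25.5 and 32.5 in TG Aire-/- (difference −0.71, and −0.58 without replicate 1). Top2a, a topoisomerase of dividing cells, stood at 63.3, 131 and 158 against 27.2, 50.9 and 103 RPKM, so its groups overlapped. None of the list passed. Regulatory T cell genes were mixed, with Foxp3 at 6.62, 3.26 and 2.89 against 10.8, 5.79 and 4.13 RPKM and 7 of 12 estimates higher (median 0.12). The median turned to −0.23, with 4 of 12 higher, without TG Aire-/- replicate 1.

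Medullary genes were mostly low in TG Aire-/- replicates 2 and 3, while replicate 1 was uneven. Krt5, a basal keratin that marks medullary epithelium, stood at 38.8, 53.7 and 34.5 RPKM in Aire-/- and at 48.6, 13.8 and 8.25 in TG Aire-/-. The other two transgenic libraries lay far below every Aire-/- value, and replicate 1 within the range. Krt5 differed by −1.17 with all libraries (limma adjusted p = 0.61) and fell by 1.86 (adjusted p = 0.0355) without replicate 1, a call lost with no filter (adjusted p = 0.0908). Fezf2, a second regulator of peripheral-tissue genes in the medulla, stood at 7.02, 8.60 and 4.72 against 6.54, 2.04 and 1.92 RPKM (−1.35 without replicate 1, adjusted p = 0.10). Krt17 stood at 140, 81.6 and 72.9 against 33.9, 64.8 and 51.4, and the tight-junction gene Cldn4 at 17.9, 20.5 and 21.1 against 6.48, 9.36 and 14.1 RPKM. These 2 were lower in all 3 transgenic libraries, with differences of −0.95 and −0.98, and of −0.70 and −0.73 without replicate 1. Of 16 medullary genes, all tested, 12 had lower estimates with a median of −0.39, and all 16 were lower with a median of −0.78 without TG Aire-/- replicate 1. Cortical epithelium, by contrast, had a median of −1.08 that shrank to −0.24 without that library.

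Without TG Aire-/- replicate 1, 19 genes fell (0.153% of 12406 genes, 0 higher). Of the list of 39 tissue-restricted antigens 14 passed the filter and 2 were among the 19, Csn2 and Lpo. The tissues given below for the other genes are background on each and were not tested as a group. Csn2, the milk β-casein, stood at 47.4, 48.7 and 41.1 RPKM in Aire-/- and at 25.96, 5.88 and 8.09 in TG Aire-/-, with TG Aire+/- at 17.3, 24.4 and 32.9. Its groups did not overlap even with replicate 1. Csn2 fell by 2.56 without that library (SE 0.263, limma adjusted p = 0.0113). Cdx1, a homeobox gene of intestinal epithelium, stood at 12.1, 10.9 and 8.32 against 6.22, 1.98 and 1.78 RPKM, and fell by 1.98 without replicate 1. Lypd8, a protein that coats colonic epithelium, stood at 7.79, 9.95 and 9.17 against 7.14, 1.31 and 1.01 RPKM and fell by 2.21. Calcb, a neuropeptide gene, stood at 14.6, 13.1 and 9.15 against 9.87, 2.57 and 3.41 and fell by 1.72. Also among the 19 were Fcgbp of mucus, Dio1 of thyroid hormone conversion, Utf1 of pluripotent cells, Skint2 of thymic and skin epithelium, Lad1 of basement membrane and Lyz1, a lysozyme that stood at 40.5 RPKM in TG Aire-/- replicate 1 and at 2.07 and 1.77 in replicates 2 and 3. The cytokine Il13 stood at 6.33, 6.16 and 5.37 against 5.73, 1.72 and 1.57 RPKM and fell by 1.39, with TG Aire+/- at 2.20, 2.30 and 2.37. The 14 tissue-restricted antigens that passed the filter had 9 lower estimates (median −0.25), and 10 without replicate 1 (median −0.37). Grp, a gut peptide that did not pass, stood at 1.10, 1.86 and 1.55 against 0.454, 0.0908 and 0.487 RPKM.

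**Figure D4:**
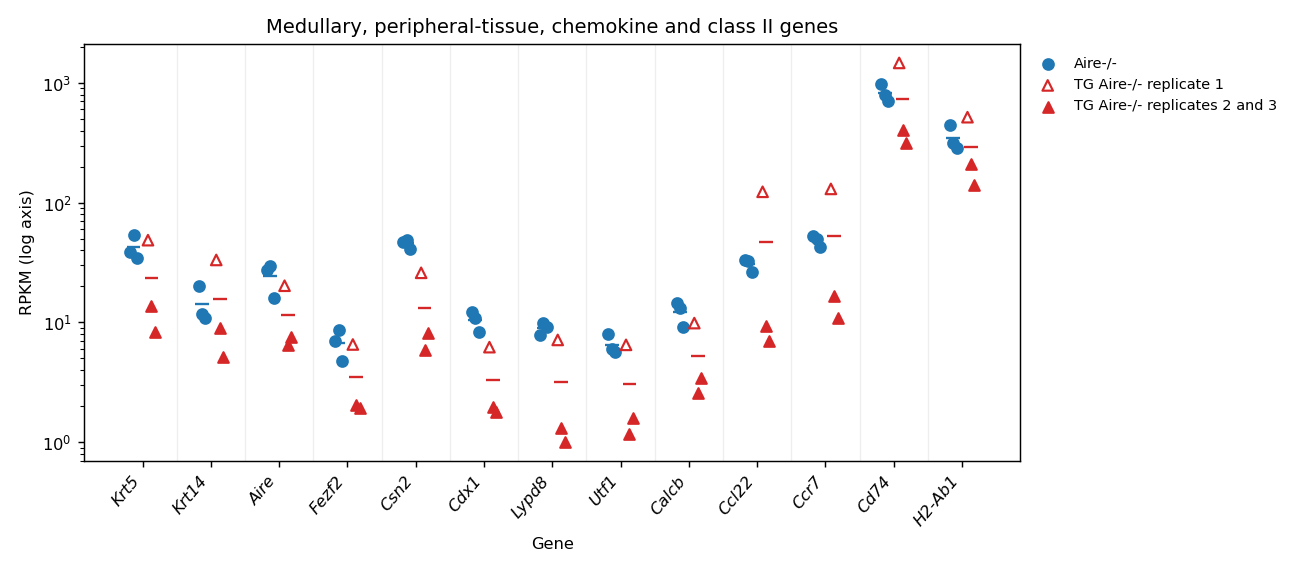
RPKM on a log axis of 13 medullary, peripheral-tissue, chemokine and class II genes in the 6 libraries (circles Aire-/-, filled triangles TG Aire-/- replicates 2 and 3, open triangles replicate 1, bars group means). The filled triangles lie below all circles in each of the 13 genes, while the open triangles of Ccl22, Ccr7 and Cd74 lie above the circles.

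Chemokines and antigen presentation split by library in the same way. Ccl22, a chemokine of medullary dendritic cells that binds Ccr4, stood at 32.9, 32.5 and 26.3 RPKM in Aire-/- and at 123, 9.35 and 7.02 in TG Aire-/-. Ccr7, which guides single-positive thymocytes and dendritic cells to the medulla, stood at 52.5, 50.1 and 43.0 against 130, 16.5 and 10.9 RPKM. For both, replicate 1 was highest of all 6 libraries and the other transgenic libraries were lowest. Without it Ccl22 fell by 1.79 (limma adjusted p = 0.0113) and Ccr7 fell by 1.77 (adjusted p = 0.0203). Cd74, the class II invariant chain, stood at 973, 799 and 700.1 against 1468, 406 and 313 RPKM, a difference of −1.19 without replicate 1 that did not pass (adjusted p = 0.188). Of 11 class II genes 7 had lower estimates, and all 11 did without that library, where the median was −0.76 and none passed. The fibroblast and neutrophil lists were at −0.75 and −0.74 there, with 11 of 11 and 8 of 8 members lower.

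Calls were also taken with the gap between long and short genes of each library as a covariate and without TG Aire-/- replicate 1, a setting chosen after seeing the data and left with 4 residual degrees of freedom. There 110 genes rose (0.887% of 12406) and 521 fell (4.2%), including all 19 above. With all libraries the same covariate gave 0 calls, and 964 genes at an unadjusted p under 0.05 in limma. In that setting 3 of 20 interferon-γ-inducible genes rose (Gbp3, Gbp6 and Gbp10), and 0 fell. Gbp6 differed by 0.90 there (limma adjusted p = 0.0119) and Gbp3 by 0.95 (adjusted p = 0.0147). Of the medullary list 10 of 16 fell, Aire, Fezf2, Krt14 and Krt17 among them, and of the class II list 6 of 11, including Cd74 and H2-Ab1. Cd5 and Nr4a1 fell among the T cell receptor signal genes (3 of 10), Itgae and Skil among TGF-β feedback and target genes (3 of 12), and Tgfbr2 among receptors and Smads (1 of 8). Without the covariate none of these named genes passed, so their calls rest on it.

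Haemoglobin genes kept their difference without TG Aire-/- replicate 1. Hba-a1 stood at 154, 103 and 182 RPKM in Aire-/- and at 286, 287 and 264 in TG Aire-/- (difference 0.97, SE 0.277, limma adjusted p = 0.61), and the groups did not overlap. Hbb-bs stood at 128, 112 and 208 against 309, 228 and 246 RPKM. The β-globin copies Hbb-b2 and Hbb-bt share their values. The erythroid list had 7 of 8 higher estimates with a median of 0.83 and of 0.71 without that library, but Alas2, which starts haem synthesis in red cell precursors, stood at 1.05, 1.03 and 1.39 against 2.20, 1.21 and 1.19 RPKM. Adipocyte genes, in contrast, were high in replicate 1, with list sums of 1203 RPKM there, 156 and 133 in replicates 2 and 3 and 88.8 to 107 in Aire-/-.

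**Figure D5:**
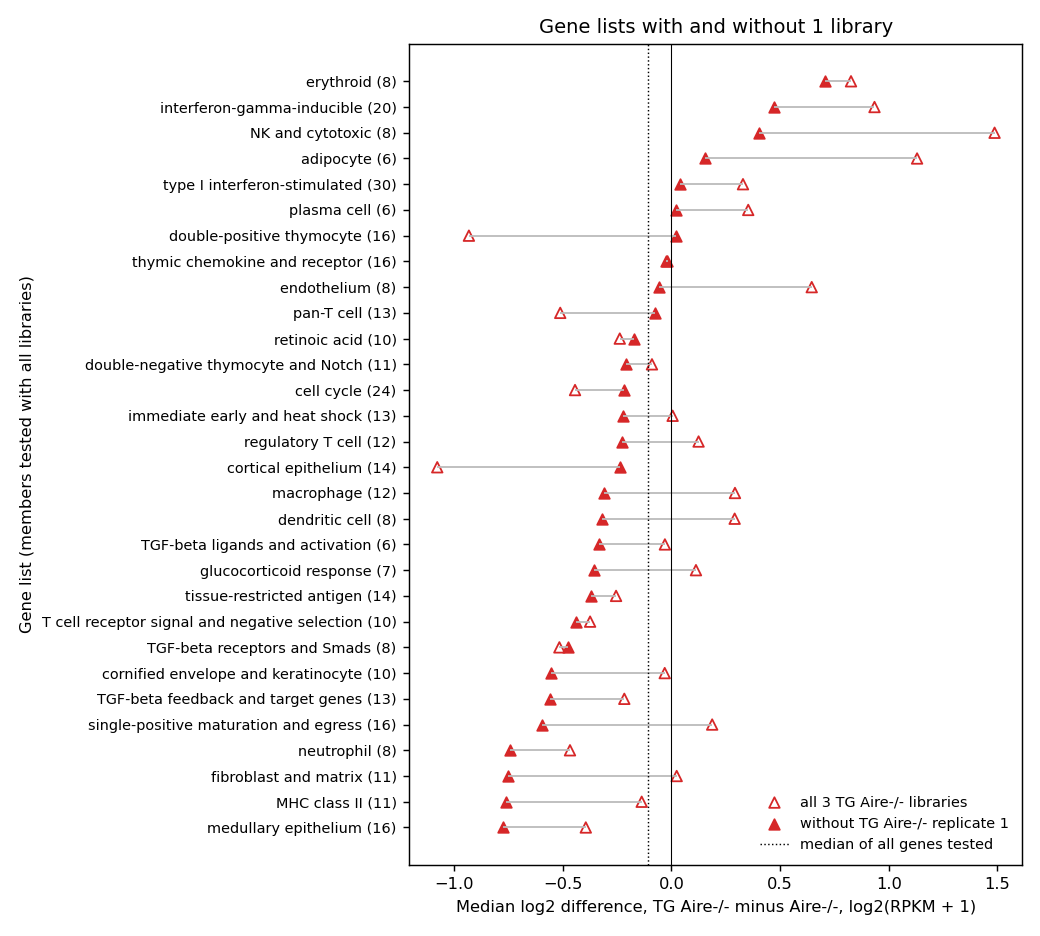
Median log2 difference of each gene list with at least 5 members tested, other than the B cell and tuft-like lists, whose members passed the filter in part only through TG Aire-/- libraries, with all libraries (open triangles) and without TG Aire-/- replicate 1 (filled triangles), and the median of all genes tested as a dotted line. The type I interferon, TGF-β feedback, cornified-envelope and retinoic acid lists also held members that passed only with that library counted. The erythroid and interferon-γ-inducible medians are highest without that library, at 0.71 and 0.47, and the medullary epithelium and class II medians lie lowest, at −0.78 and −0.76.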

How the data were processed

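Whole-thymus RNA of 9 libraries was used. The authors deposited 1 thymus table in RPKM, reads scaled by gene length and library total, for 24786 genes. STAR 2.5.2b and mm10 are named per the submitters' processing notes, while the sources used here do not give the counting tool or annotation. No rescaling was applied by default. Tests were two-sided and used limma (version 3.58.1, R version 4.3.3; lmFit and trended eBayes) on log2(RPKM + 1), with all 3 thymus groups in 1 fit without covariates, on genes of at least 1 RPKM in at least 3 of 9 libraries. Differences are on that scale and understate changes of low genes. The type I interferon, TGF-β feedback, cornified-envelope, retinoic acid, B cell and tuft-like lists held members that passed only with TG Aire-/- replicate 1 counted. P-values were adjusted over all 12568 genes (Benjamini-Hochberg, threshold 0.05).

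Depth, read from the steps between low values, came to about 22400000 to 29900000 reads per library. Only 44.4% to 49.0% of low values were whole reads within 0.1 read (chance 20%), so no count test was run. At that depth 3 reads on a 2000-base gene are 0.0502 to 0.067 RPKM, which covers counting error only. The fit was tested on simulated data. Named genes were those called, the 10 lowest in p in each direction whose groups did not overlap, Aire and Tgfbr2, genes called without TG Aire-/- replicate 1, and the first and lowest-p members of 35 lists. Genes outside that rule, such as Gbp8, Ifi47, Cxcl10 and the markers of single libraries, were chosen after their values were seen. Members and lists were chosen with earlier results of these data known. The table holds 41 sets of genes with identical values. Promoters are those of RefSeq (GRCm38.p6).

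Alternatives were another pseudocount, other filters and scalings, no trend, fewer groups, a replicate block, sample weights, sex, each replicate left out and 5 settings chosen after seeing the data. Liver and CD8+ T cell libraries were not used here.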

Additional observations from a re-analysis of the deposited data

How the results depend on the processing

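Of 12568 genes 2 were called in TG Aire-/- against Aire-/-, both lower. The count was 0 with no filter on low values, with median-of-ratios or quantile scaling, with only the 2 compared groups, with sex as a covariate and with the index of long against short genes as a covariate (chosen after seeing the data). It stayed at 2 with a pseudocount of 0.1, with the filter over the compared samples and without the trend. Leaving out 1 replicate at a time gave 0 to 19 calls, the highest without TG Aire-/- replicate 1. With the replicate number as a block the count was 0, and 1657 genes had an unadjusted p under 0.05 against 949. The numbers are shared but nothing in the labels pairs the libraries: same-numbered deviations had correlations of −0.08, −0.12 and 0.18. Sample weights gave 9420 calls, and weights gene by gene (chosen after seeing the data) 5185, where the weights of single libraries ran from 0.0622 to 53.3 and from 0.0988 to 9.09. Also chosen after seeing the data, leaving out TG Aire-/- replicate 1 together with the filter gave 17 calls, together with TG Aire+/- gave 0, and together with the long-gene index as a covariate gave 631. Lower estimates made up 78.7% of genes at an unadjusted p under 0.05, and 55.9% and 53.5% after median-of-ratios and quantile scaling, which moved the median of all genes from −0.11 to 0.01 and −0.00. Without 1 replicate at a time Lyz1 ranged from −1.47 to 0.48 (0.41 without TG Aire-/- replicate 2) and Ccl22 from −1.79 to 0.19. The signs of the ligand, cornified-envelope, double-negative and chemokine list medians turned with scaling, all from medians near 0. Levels under 0.067 RPKM of a 2000-base gene rest on 3 reads or fewer in at least 1 library.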

Other observations

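TG Aire-/- was also set against TG Aire+/-. For Sprr2a1 the difference from TG Aire+/- was −1.96 on the log2 scale (limma adjusted p = 0.0783), and for Lpo −1.49 (adjusted p = 0.0907). These comparisons share the TG Aire-/- libraries with those of the report, so they are not separate evidence. Calca, a calcitonin gene, stood at 1.87, 1.19 and 0.947 RPKM in Aire-/- and at 0.919, 0.328 and 0.228 in TG Aire-/-, without overlap. Spic, a regulator of iron-recycling macrophages, stood at 5.21, 3.87 and 4.01 against 15.2, 8.20 and 5.48 RPKM, also without overlap, and Tsc22d3, a glucocorticoid-induced gene, at 83.8, 69.3 and 75.5 against 60.3, 103 and 114 RPKM, where TG Aire-/- replicate 1 was the lowest library and replicates 2 and 3 the highest. None of these passed the test. When TG Aire-/- replicate 1 was left out the differences were −0.85 for Calca, 0.53 for Spic and 0.50 for Tsc22d3, against −0.65, 0.89 and 0.23 with it.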
